A study of Mus musculus with 6 samples.

Results

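Macrophage and leukocyte genes were examined in dissected mouse pancreas of the embryonic stage E12.5, in control embryos and in embryos labelled Hox6 null. The set comprises 32 named genes of white blood cells: pan-leukocyte genes, receptors and the transcription factor gene Spi1, macrophage surface genes, signalling adaptors with Fc receptors, complement C1q and lysosomal or effector genes. All 32 were among the 18193 genes with a probe set of their own on the array, and where a gene had several probe sets the one with the highest mean over all 6 arrays was used. The control group was 3 samples labelled wild type and the other group 3 samples labelled Hox6 null, both on the strain labelled Bl6, each sample on 1 array. Hox6 stands for the paralogous homeobox genes Hoxa6, Hoxb6 and Hoxc6, and the labels give neither the alleles nor the number of embryos in a sample. RNA came from flash-frozen organs, and 10 ng per sample was amplified and labelled with biotin. Arrays are called control 1 to 3 and null 1 to 3 after the replicate numbers of the labels.

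Macrophages settle in nearly every organ of the embryo, first from yolk sac precursors and then from fetal liver. The receptor Csf1r, bound by the growth factors Csf1 and Il34, keeps them alive, and the transcription factor PU.1, encoded by Spi1, switches on many of their genes. They clear dying cells and debris through surface receptors, opsonins such as C1q and lysosomal enzymes. In bulk tissue, fewer cells of a type and less RNA per cell cannot be told apart.

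Values are log2 levels, and a difference is the null mean minus the control mean with its standard error (SE) from limma. Over all genes the median difference was 0.03; the deposited values were already normalized to each other, which sets this near 0. Because binding differs from probe set to probe set, levels are compared between arrays for the same gene and not between genes; the median gene read 6.81 and the lower quartile was 4.63, and the array understates differences of genes that read low. Across all probe sets, control arrays correlated with each other at 0.994 to 0.995 and null arrays at 0.980 to 0.987. Null 3 correlated with each control array at 0.990, above its 0.980 with null 1 and 0.985 with null 2. Of the targeted genes, Hoxb6 differed by -0.42 (adjusted p = 0.358, limma) and Hoxc6 by 0.13 (adjusted p = 0.485, limma), while Hoxa6 was not analysed here; a probe set outside a disrupted part checks nothing. With 3 samples against 3 an exact two-sided permutation test cannot give a p below 0.1, so tests come from limma across all genes, adjusted by Benjamini-Hochberg over all of them, with a call at 0.05.

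Most macrophage and leukocyte genes read lower in Hox6 null pancreas. Of the 32 genes 28 had a negative difference, against 44% of all genes, and the median over the 32 was -0.59. Ctss, the lysosomal protease cathepsin S, and Adgre1, the macrophage surface receptor known as F4/80, fell, by 1.91-fold and 2.55-fold (limma, adjusted p = 0.0417 each). These were 2 of 32 members called lower, where 0.066% of all genes were called lower and 0.0715% in either direction. None of the 32 was called higher. In 22 of the 32, or 68.8%, every null array read below every control array, while 11.7% of all genes showed this; in 0 of the 32 did every null array read above every control array, against 12.2% of all genes. An unadjusted p under 0.05 with a lower level was found for 20 members and for 8.24% of all genes. At a looser adjusted threshold of 0.1 the members called lower were 5, Ctss, Adgre1, C1qb, Lyz2 and Fcer1g, and 0.385% of all genes were called lower. The 32 genes were chosen with earlier results of these arrays known, so these counts describe the list and are no independent evidence of its direction.

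**Figure D1:**
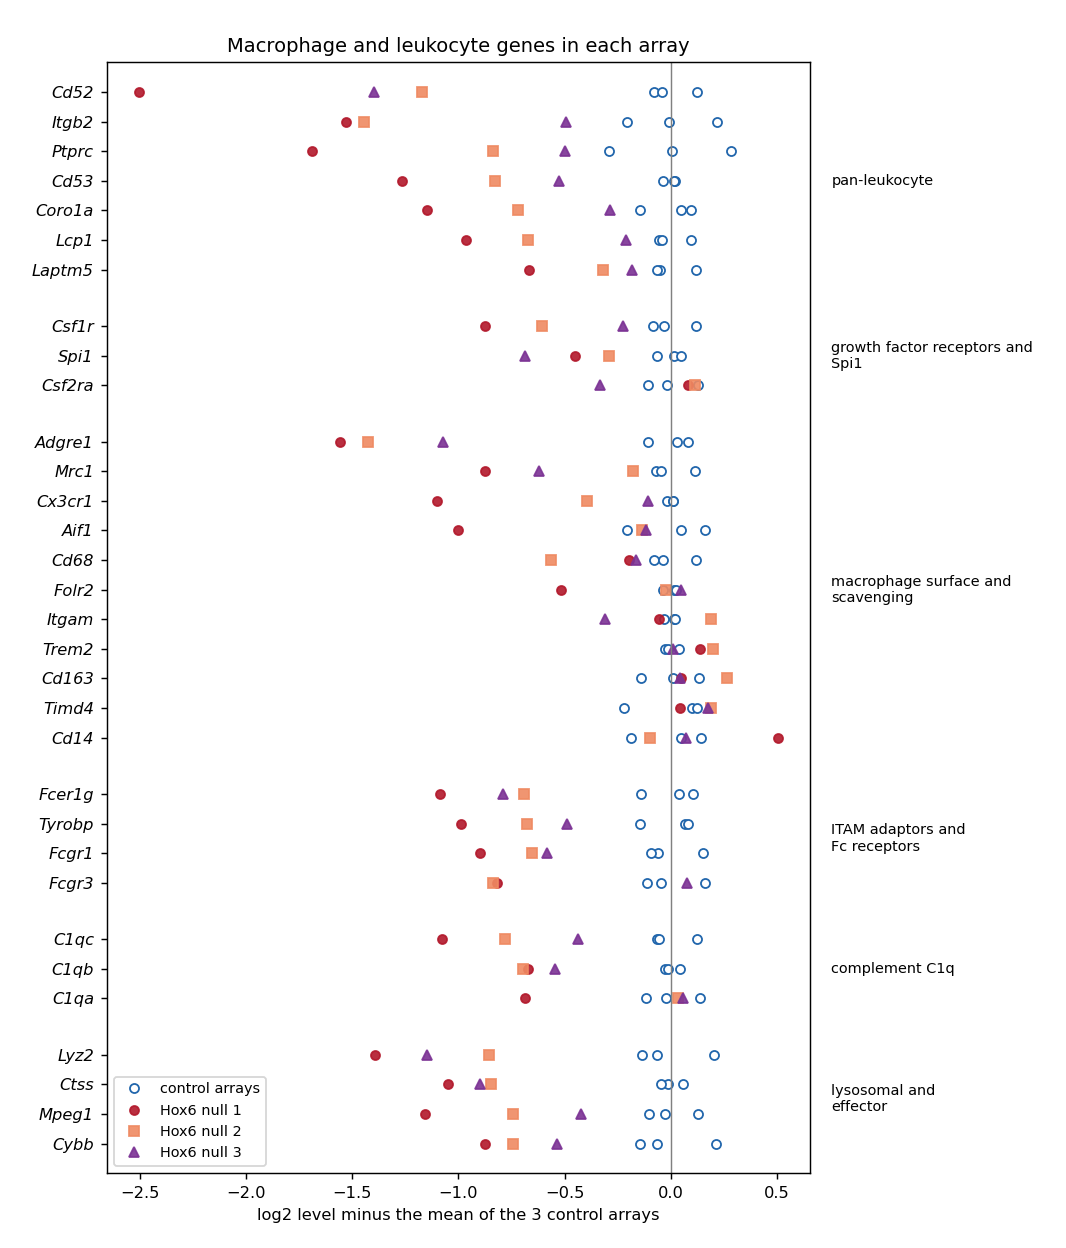
Level of each of the 32 genes in each of the 6 arrays as log2 level minus the mean of the 3 control arrays (x axis), with genes on the y axis grouped by role; open circles are control arrays, and filled circles, squares and triangles are null 1, null 2 and null 3. In 22 genes all 3 null arrays lie to the left of all 3 control arrays, and the genes at the bottom of the macrophage surface group, such as Cd163 and Timd4, lie around 0.

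The calls of Ctss and Adgre1 depended on single arrays. Both were lost when control 1, control 2, control 3, null 1 or null 2 was left out, with an adjusted p of 0.0849 to 0.256 for Ctss and 0.0849 to 0.252 for Adgre1. Without null 3 the members called lower were 18, while 4.02% of all genes were called lower. With array weights the members called lower were 7, against 0.649% of all genes, and with an intensity trend and robust prior 5, against 0.368%. Over all 45037 probe sets 0 members passed (limma), with 20 at an unadjusted p under 0.05 and lower, and 0.00222% of probe sets were called lower. The differences themselves moved little, from -0.97 to -0.87 for Ctss and from -1.49 to -1.07 for Adgre1 over all alternatives.

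The lysosomal and effector genes were lower in all null arrays. Ctss read 8.44, 8.37 and 8.34 in control 1, 2 and 3, and 7.33, 7.54 and 7.48 in null 1, 2 and 3. The groups did not overlap, and the null arrays lay within 0.20 of each other. The difference was -0.93 ± 0.10 (SE, n = 3 per group). Cathepsin S cuts the invariant chain of MHC class II molecules and degrades matrix proteins. Lyz2, the lysozyme of macrophages and granulocytes that cuts bacterial cell walls, read 9.37, 9.03 and 9.10 in controls and 7.77, 8.31 and 8.01 in null arrays. Its lowest array was null 1 and its difference was -1.13 ± 0.16, or 2.19-fold (limma, adjusted p = 0.0735). Mpeg1, a pore-forming protein of phagosomes, read 8.19, 7.96 and 8.04 in controls and 6.90, 7.32 and 7.64 in null arrays, a difference of -0.77 ± 0.19 (limma, adjusted p = 0.166). Cybb, the catalytic subunit of the phagocyte NADPH oxidase, read 6.71, 6.44 and 6.36 in controls and 5.63, 5.76 and 5.97 in null arrays, a difference of -0.72 ± 0.14 (limma, adjusted p = 0.132). In all 4 genes of this group the null arrays lay below the controls, against 11.7% of all genes, and the median difference was -0.85.

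Promoters are shown for members past the looser threshold and for the adaptor and C1q genes, since PU.1 is a shared regulator of myeloid genes. PU.1 binds purine-rich sites with the core GAGGAA, the PU box. The 250 bases before the RefSeq start site (GRCm38.p6) are given 5′ to 3′ on the gene's strand for 5 genes, with GAGGAA in capitals, or TTCCTC where it lies on the other strand. Adgre1, Tyrobp and C1qa are named only.
Ctss, chr3:95526536-95526785, plus strand: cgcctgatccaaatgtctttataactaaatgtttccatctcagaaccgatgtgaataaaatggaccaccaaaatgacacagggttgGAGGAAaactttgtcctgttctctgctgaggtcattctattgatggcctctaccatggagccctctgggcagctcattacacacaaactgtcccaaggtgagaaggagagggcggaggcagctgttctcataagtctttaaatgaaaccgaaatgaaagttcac
C1qb, chr4:136886201-136886450, minus strand: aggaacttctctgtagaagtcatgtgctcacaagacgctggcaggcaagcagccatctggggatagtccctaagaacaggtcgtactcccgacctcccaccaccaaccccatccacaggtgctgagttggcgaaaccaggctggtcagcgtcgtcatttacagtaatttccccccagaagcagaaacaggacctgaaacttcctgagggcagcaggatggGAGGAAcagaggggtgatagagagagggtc
C1qc, chr4:136892915-136893164, minus strand: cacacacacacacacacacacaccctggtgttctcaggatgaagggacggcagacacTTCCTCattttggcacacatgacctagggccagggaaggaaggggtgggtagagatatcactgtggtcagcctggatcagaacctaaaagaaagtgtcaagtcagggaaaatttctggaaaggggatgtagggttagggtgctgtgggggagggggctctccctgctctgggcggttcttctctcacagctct
Lyz2, chr10:117282273-117282522, minus strand: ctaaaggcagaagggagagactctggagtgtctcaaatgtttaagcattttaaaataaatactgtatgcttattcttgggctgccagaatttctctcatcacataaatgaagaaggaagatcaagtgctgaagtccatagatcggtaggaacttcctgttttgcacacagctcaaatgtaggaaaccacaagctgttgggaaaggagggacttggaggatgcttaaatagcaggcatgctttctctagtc
Fcer1g, chr1:171234350-171234599, minus strand: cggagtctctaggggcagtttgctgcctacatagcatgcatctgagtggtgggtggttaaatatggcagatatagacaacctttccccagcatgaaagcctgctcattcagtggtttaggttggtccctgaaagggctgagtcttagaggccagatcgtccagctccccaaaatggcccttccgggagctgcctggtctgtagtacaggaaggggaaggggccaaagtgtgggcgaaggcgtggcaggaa

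The window of Ctss holds 1 match, which starts 164 bases before the start site, that of C1qb 1, which starts 30 bases before it, and that of C1qc 1 on the other strand, 193 bases before it. The windows of Lyz2 and Fcer1g hold 0 matches to these letters, which says nothing of whether PU.1 binds there. Of the 24 members with a window in the table, 14 (58.3%) held GAGGAA in at least 1 window on either strand, and 25.9% of all 27025 genes did. The related letters GGAAGT, which also fit the ETS family to which PU.1 belongs and can overlap GAGGAA, were found in 10 of the 24 members (41.7%) and in 22.2% of all genes. TGACTCA, the AP-1 site, was found in 2 of 24 (8.33%) and in 5.16% of all genes. Whether a match goes with the size of the difference was not tested.

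Macrophage surface genes split into those that were lower and those that were level. Adgre1 read 6.16, 6.03 and 6.21 in controls and 4.58, 4.71 and 5.06 in null arrays, a difference of -1.35 ± 0.14. The highest null array lay 0.97 below the lowest control. Mrc1, the mannose receptor, read 8.33, 8.51 and 8.36 in controls and 7.53, 8.22 and 7.78 in null arrays, without overlap, and differed by -0.56 ± 0.18 (limma, adjusted p = 0.224). Cx3cr1, the receptor of fractalkine, read 7.98, 8.0 and 8.0 in controls and 6.89, 7.60 and 7.89 in null arrays. Here the 3 controls lay within 0.03 of each other while the null arrays spanned 0.99, and the difference of -0.53 ± 0.24 did not pass (limma, adjusted p = 0.308). Cd68, a lysosomal glycoprotein, differed by -0.31 ± 0.14 without overlap. Aif1, the calcium-binding protein Iba1, read 7.52, 7.15 and 7.40 in controls and 6.35, 7.22 and 7.24 in null arrays. For Aif1 only null 1 lay below the controls, and null 2 and null 3 lay among them.

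The other 6 surface genes differed by -0.16 to 0.16 with overlapping arrays. They were Folr2, the folate receptor of tissue macrophages, the haemoglobin scavenger receptor Cd163, the phosphatidylserine receptor Timd4, the lipid receptor Trem2, the lipopolysaccharide co-receptor Cd14 and the integrin gene Itgam. Cd163 read 2.86 to 3.13 in controls and 3.04 to 3.27 in null arrays, Itgam 3.52 to 3.57 and 3.25 to 3.74, Timd4 4.12 to 4.46 and 4.38 to 4.53, and Cd14 4.11 to 4.44 and 4.20 to 4.81. These 4 lay below the lower quartile of all genes, where the array understates differences. A decrease could still be read there: a dimmer probe set of Cybb, with a mean level of 3.99, differed by -1.45 without overlap. Whether low readings hid a decrease of the 4 was not tested. Trem2 read 6.44 to 6.51 in controls and 6.48 to 6.67 in null arrays, a difference of 0.12 ± 0.10 (limma, adjusted p = 0.545). Its second, dimmer probe set gave 0.40, and its signalling partner Tyrobp differed by -0.72. Folr2 read 5.84 to 5.90 in controls, 5.36 in null 1, 5.85 in null 2 and 5.93 in null 3.

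**Figure D2:**
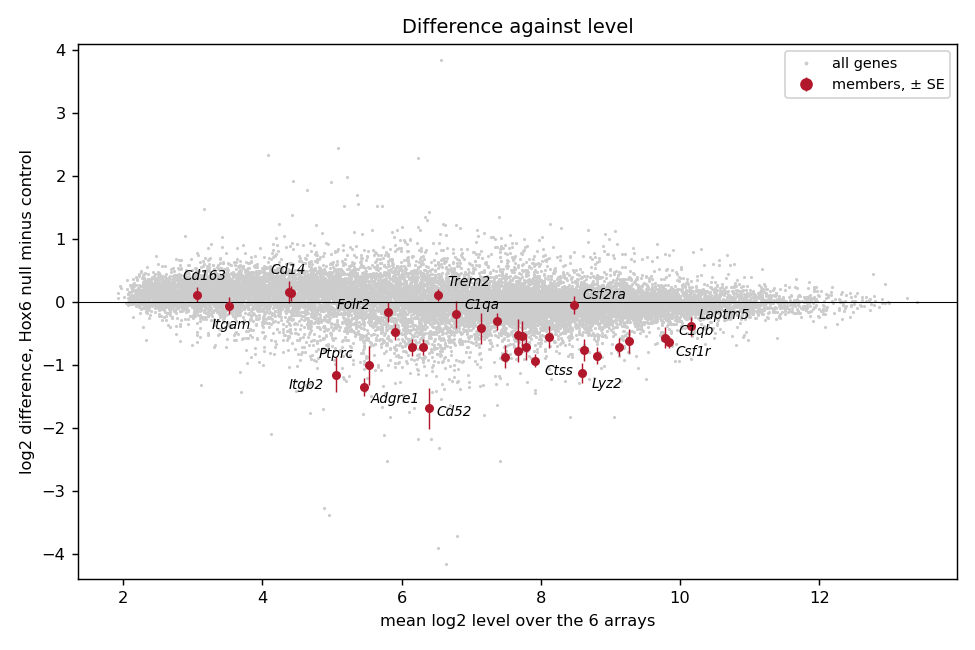
Difference of each gene (y axis, log2, null minus control) against its mean log2 level over the 6 arrays (x axis); grey points are all 18193 genes and red points with bars of ± SE are the 32 members. The members at or above the median gene all lie below 0, while Cd163, Itgam and Cd14 at the left lie close to 0.

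Members that read higher on the array were more often displaced, which was not tested. Of the 18 members at or above the median gene all 18 had a negative difference, with a median of -0.63 and 15 without overlap. The median difference over all 9097 genes at or above the median gene was -0.04. Over all genes of any level 44% were negative and 11.7% had every null array below every control array. Those shares were not counted for brighter and dimmer genes apart. Among the 14 members below the median gene 10 were negative, with a median of -0.34 and 7 without overlap, among them Cd52, Adgre1, Itgb2 and Ptprc. Csf2ra had the smallest difference among the brighter members, at -0.05. Its arrays overlapped, as did those of Aif1 and Fcgr3.

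All 7 pan-leukocyte genes read lower without overlap, against 11.7% of all genes, with a median of -0.87. Cd52, a small surface glycoprotein of lymphocytes and myeloid cells, read 7.36, 7.16 and 7.20 in controls and 4.74, 6.07 and 5.84 in null arrays. This was the largest displacement among the 32 genes, -1.69 ± 0.32 or 3.23-fold, and it did not pass (limma, adjusted p = 0.132). Ptprc, the phosphatase CD45 that marks leukocytes, read 5.75, 6.32 and 6.04 in controls and 4.35, 5.20 and 5.54 in null arrays, a difference of -1.01 ± 0.30 (limma, adjusted p = 0.210). Itgb2, the shared beta chain of leukocyte integrins, read 5.43, 5.85 and 5.62 in controls and 4.11, 4.19 and 5.14 in null arrays, a difference of -1.16 ± 0.28 (limma, adjusted p = 0.166). In both, null 3 lay closest to the controls. Cd53, a tetraspanin, was tight in controls at 7.89, 7.95 and 7.94 and read 6.66, 7.10 and 7.40 in null arrays, a difference of -0.87 ± 0.18 (limma, adjusted p = 0.152). The actin regulators Coro1a and Lcp1 differed by -0.72 ± 0.21 and -0.62 ± 0.19, and Laptm5, a lysosomal membrane protein, by -0.39 ± 0.14.

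The 2 growth factor receptors gave differences of -0.57 and -0.05, neither called, and the gap between them was not tested. Csf1r, the receptor on which macrophages depend, read 10.19, 10.04 and 9.99 in controls and 9.19, 9.46 and 9.85 in null arrays, a difference of -0.57 ± 0.17 without overlap (limma, adjusted p = 0.209). Its null arrays ran from 0.14 to 0.79 below the lowest control. Csf2ra, the alpha chain of the GM-CSF receptor, read 8.39, 8.62 and 8.48 in controls and 8.57, 8.61 and 8.16 in null arrays, a difference of -0.05 ± 0.15. Its groups overlapped, and the sign turned in 5 alternatives. Spi1 read 6.08, 6.15 and 6.19 in controls and 5.69, 5.85 and 5.45 in null arrays, a difference of -0.48 ± 0.12 without overlap (limma, adjusted p = 0.177). Unlike most members, Spi1 was lowest in null 3.

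The adaptors that carry an immunoreceptor tyrosine-based activation motif and the Fc receptors all had negative differences. Fcer1g, the common gamma chain of Fc receptors, read 9.27, 9.09 and 9.33 in controls and 8.15, 8.54 and 8.44 in null arrays, a difference of -0.86 ± 0.13 (limma, adjusted p = 0.0852). Tyrobp, the adaptor DAP12 of Trem2 and other receptors, read 9.55, 9.33 and 9.56 in controls and 8.49, 8.80 and 8.99 in null arrays, a difference of -0.72 ± 0.15 (limma, adjusted p = 0.152). Fcgr1, the high-affinity IgG receptor that signals through Fcer1g, read 6.61, 6.57 and 6.82 in controls and 5.77, 6.01 and 6.08 in null arrays, a difference of -0.71 ± 0.12 (limma, adjusted p = 0.112). None of these 3 overlapped. Fcgr3, a low-affinity IgG receptor, read 8.09, 7.82 and 7.89 in controls and 7.11 and 7.10 in null 1 and null 2, whereas null 3 read 8.01 and lay among the controls (-0.53 ± 0.25; limma, adjusted p = 0.330).

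The 3 chains of complement C1q, which assemble together and opsonise dying cells, gave unequal differences. C1qb read 10.14, 10.15 and 10.21 in controls and 9.50, 9.47 and 9.62 in null arrays, a difference of -0.64 ± 0.09 (limma, adjusted p = 0.0735). C1qc read 8.93, 8.94 and 9.12 in controls and 7.92, 8.22 and 8.56 in null arrays, a difference of -0.76 ± 0.17 (limma, adjusted p = 0.158). Both were lower in every null array. C1qa read 7.01, 6.76 and 6.85 in controls and 6.19, 6.91 and 6.93 in null arrays, so that null 1 alone was low and the difference was -0.20 ± 0.21 (limma, adjusted p = 0.635). C1qa had 1 probe set, and the difference between the chains was not tested.

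The null arrays were not alike. Relative to the control mean, the median over the 32 genes was -0.89 in null 1, -0.66 in null 2 and -0.38 in null 3. Null 1 was the lowest of the null arrays for 23 genes and null 3 the highest for 20. Below all 3 controls lay 27 members in null 1, 23 in null 2 and 24 in null 3, against 31.3%, 32.8% and 31.8% of all genes. The mean log2 level over the 32 was 7.36 to 7.40 in control arrays and 6.55, 6.87 and 6.98 in null 1, null 2 and null 3, so the groups did not overlap. Leaving out null 1 brought the median difference to -0.47, and leaving out null 3 to -0.76.

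Markers of other cell types differed between the arrays as well. The 17 measured epithelial genes of the list, such as Epcam, had a mean level of 8.11 to 8.19 in controls and of 9.15, 8.98 and 8.15 in null 1, null 2 and null 3, and 16 of 17 had a positive difference. With this level as a covariate the median over the 32 members was -0.36 in place of -0.59, 25 of 32 were negative and 0 passed (limma; 0.033% of all genes were called lower), with an unadjusted p under 0.05 and a lower level for 13; this covariate was planned with earlier results of these arrays known. All 16 endothelial genes and all 13 mesenchyme genes had a negative difference, with medians of -0.57 and -0.33. Their mean levels were 8.36 to 8.47 in controls and 7.65 to 8.04 in null arrays for endothelium, and 9.73 to 9.90 and 9.20 to 9.25 for mesenchyme. Among the 8 genes of mesothelium, 7 differed downwards (median -0.84), with mean levels of 6.71 to 6.89 in controls and 5.78 to 6.26 in null arrays. Every null array read below every control array in 87.5% of the endothelial, 69.2% of the mesenchyme and 62.5% of the mesothelium genes. This held for 68.8% of the members and 11.7% of all genes. Called lower were 2 endothelial, 0 mesenchyme and 0 mesothelium genes (limma), against 0.066% of all genes. The part of the epithelial level in the leukocyte values was not tested beyond this covariate, and that of the endothelial, mesenchymal and mesothelial levels was not tested.

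**Figure D3:**
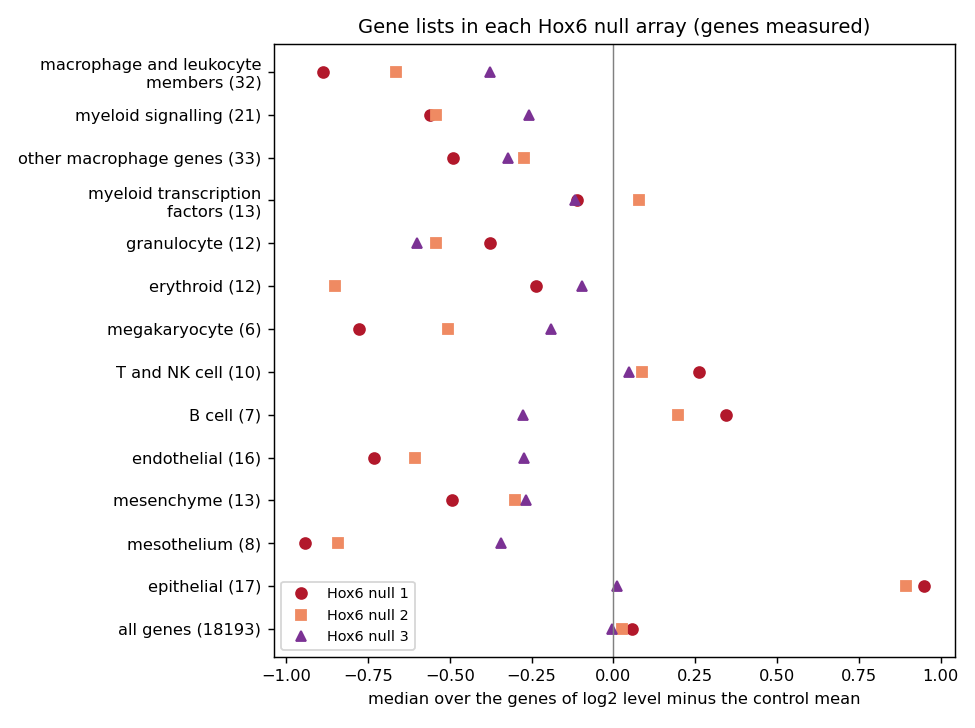
Median over the genes of each list (y axis, number of genes measured in brackets) of the log2 level minus the control mean (x axis); filled circles, squares and triangles are null 1, null 2 and null 3. The macrophage and leukocyte members lie at -0.89, -0.66 and -0.38, the epithelial list lies at 0.95 and 0.89 in null 1 and null 2 and at 0.01 in null 3, and all genes together lie near 0.

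Several members had more than 1 probe set. There were 51 probe sets for the 32 genes: 20 genes had 1 and 12 had several, and of these 12 the sign was the same in all probe sets for 6. Of the 19 probe sets not used, 9 had all null arrays below all controls, against 9.89% of all probe sets. The 3 probe sets of Csf1r differed by -0.57, -0.46 and -0.40, those of C1qb by -0.64, -0.57 and -0.84 and those of Cybb by -0.72, -0.70 and -1.45. The Cybb probe set at -1.45 was its dimmest, with a mean level of 3.99. Both probe sets of Lcp1 were negative, at -0.62 and -0.75, as were both of Ptprc, at -1.01 and -0.27. For Laptm5 the 3 brighter ones gave -0.39, -0.45 and -0.59 and the 2 dimmest, which read 4.19 and 2.74 on average, gave 0.14 and 0.08. The dimmest probe sets of Cd53 (mean level 2.34), Coro1a (3.77) and Fcgr1 (4.23) gave 0.31, 0.06 and 0.03. The dimmer one of Cx3cr1 gave 0.02 at a mean level of 6.60, above the median probe set at 5.98. The second probe set of Csf2ra gave 0.36, with null 2 at 7.67 and the other 5 arrays at 5.84 to 6.31.

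**Figure D4:**
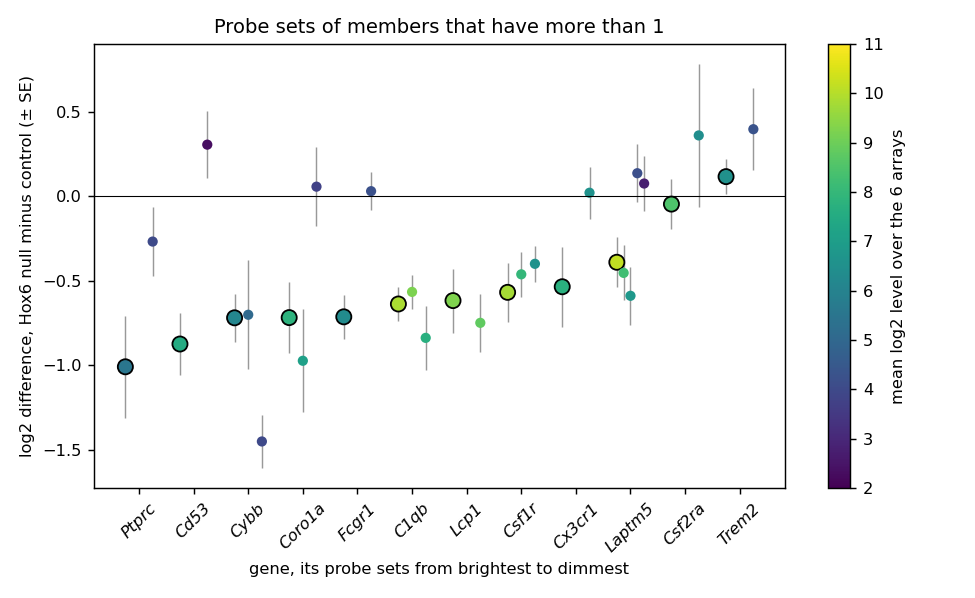
Difference of each probe set (y axis, log2, null minus control, ± SE from the fit over all probe sets) for the 12 members with more than 1, ordered on the x axis by gene and, within a gene, from the brightest to the dimmest; colour gives the mean log2 level and a black outline marks the probe set used. The probe sets at or above 0 are mostly dark, which means low readings, as for Cd53 at 0.31 and Laptm5 at 0.14 and 0.08.

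Genes that act with the members inside myeloid cells mostly had negative differences too, and 0 passed. Among the 21 measured genes for myeloid signalling and the NADPH oxidase 18 differed downwards (median -0.45), 13 without overlap, and 14 with an unadjusted p under 0.05 and a lower level (limma); 0 were called. Fermt3, the integrin activator kindlin-3 of blood cells, differed by -0.82 ± 0.16 (limma, adjusted p = 0.131), the receptor chain Csf2rb by -0.85 ± 0.18, the adaptor Fyb by -0.96 ± 0.23 and the oxidase subunit Ncf4 by -0.72 ± 0.20. The difference of Fermt3 was 0.14 when only probe sets with the plain suffix were used. Among 33 other surface and lysosomal genes of macrophages 23 differed downwards (median -0.42), 18 without overlap. An unadjusted p under 0.05 with a lower level was found for 18 (limma), and 0 were called. Over all genes, every null array lay below every control array for 11.7%, and 8.24% had such a p with a lower level. Ly86 and Ly96, accessory proteins of Toll-like receptor complexes, differed by -1.27 ± 0.25 and -0.89 ± 0.18, Ms4a6c by -0.99 ± 0.20 and the endolysosomal exonuclease Pld4 by -0.91 ± 0.20. These have the smallest p of the list, and 10 of the 33 differed upwards. Havcr2, Pirb and Msr1 did so most, by 0.34 ± 0.15, 0.33 ± 0.18 and 0.29 ± 0.12, each with overlap. Sirpa, with a mean level of 9.29, differed by 0.20 ± 0.16 with overlap. Among these 2 lists the arrays of 1 gene, the kinase Fgr, lay without overlap on the higher side, at 0.29.

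Transcription factors of myeloid cells showed no common direction. Of 13 measured 7 were negative and 6 positive, with a median of -0.08, and 0 were called. Every null array lay below every control array for 4 and above for 2, against 11.7% and 12.2% of all genes. Spic, Gfi1 and Bhlhe41, all positive, read 3.17, 3.78 and 3.91 on average, below the lower quartile of all genes. An unadjusted p under 0.05 was found for 5 (limma), 3 of them lower, against 8.24% lower over all genes. Irf8 and Ikzf1, factors of macrophage and lymphoid development, differed by -0.44 ± 0.14 and -0.51 ± 0.18, and Tfec, a macrophage relative of Mitf, by -1.22 ± 0.39. Tfec read 5.82, 5.67 and 5.85 in controls and 3.59, 5.31 and 4.78 in null arrays, without overlap. Cebpa, which acts in myeloid cells and also in liver and other epithelia, read 6.41, 6.14 and 6.34 in controls and 6.86, 7.31 and 6.56 in null arrays, a difference of 0.62 ± 0.20 (limma, adjusted p = 0.221).

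The growth factors and ligands that other cells offer to macrophages were mixed. Of 11 measured 6 were negative and 5 positive, with a median of -0.004, and 0 were called. An unadjusted p under 0.05 was found for 3 (limma), 2 of them lower, against 8.24% lower over all genes. Csf1, a ligand of Csf1r, read 8.36, 8.50 and 8.55 in controls and 10.43, 8.55 and 8.24 in null arrays. Null 1, the array lowest for most members, was thus the highest for Csf1; the difference was 0.61 ± 0.52 (limma, adjusted p = 0.561) and -0.07 without null 1. Il34, the other ligand of Csf1r, read 3.45, 3.38 and 3.32 in controls and 3.80, 3.87 and 3.52 in null arrays, low readings throughout, with a difference of 0.35 ± 0.12 (limma, adjusted p = 0.238). Cd200, which restrains myeloid cells through its receptor, differed by -0.92 ± 0.23 without overlap (limma, adjusted p = 0.175). Pros1 and Gas6, the bridging ligands of the TAM receptors in uptake of dying cells, differed by -0.42 ± 0.11 and -0.25 ± 0.11. Their receptors Mertk and Axl differed by -0.29 ± 0.09 and -0.39 ± 0.16 without overlap, and Tyro3 by -0.07 with overlap.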

How the data were processed

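Pancreas RNA was measured on 6 arrays, 3 labelled wild type and 3 labelled Hox6 null. What the authors deposited is a table of log2 values, 1 per probe set and array; RMA, affy and limma appear without versions in the submitters' processing notes. Of 45101 probe sets, 64 were array controls and were left out. The platform's annotation gave 34945 probe sets 1 gene symbol, 932 several and 9160 none listed, and 34741 of the first kind had an Entrez identifier in the reference table (GRCm38.p6), where 0 symbols were out of date. Detection calls, scan dates and background intensities were not used here. With 3 arrays per group, their number limits precision.

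Each gene was represented by its probe set with the highest mean. The fit had genotype as its only term (limma 3.58.1 under R 4.3.3, functions lmFit and eBayes), covered 18193 genes with no filter, was two-sided with Benjamini-Hochberg adjustment, and was tested on simulated data. The labels name biological replicates without saying what separates them, so a p-value covers only the spread among these arrays. No pair of arrays shared more than 166 identical values.

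The members and the other gene lists were chosen with earlier results of these data known. Named are all members. From the lists of myeloid genes, ligands and TAM receptors at most 4 genes with the smallest p are named, with Csf1, Il34, Mertk and Axl. Epcam and the granulocyte genes were named outside this rule. Fgr, Havcr2, Pirb, Msr1, Sirpa, Camp, Ngp, Spic, Gfi1, Bhlhe41 and the mast cell genes named were chosen after their values were seen. Promoters came from RefSeq (GRCm38.p6), matched by symbol for 24 members. All 7 motif spellings that were counted are described. Of the alternatives 17 were planned and 1 was added after the data had been seen.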

Additional observations from a re-analysis of the deposited data

How the results depend on the processing

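The median over the members tested stayed negative in every alternative run, from -0.76 without null 3 to -0.36 with the epithelial covariate. It moved by less than the spread between null arrays (0.26). The members tested were 18 where only genes at or above the median level were used, 29 with plain-suffix probe sets and otherwise 32. Counts of calls depended on the setting (limma). In place of 13 genes over all and 2 members, 1 gene and 0 members passed with repeated quantile normalization, over all probe sets and with the probe set of largest variance, and 8 and 0 with median centring. With array weights 155 and 7 passed, with an intensity trend and robust prior 74 and 5, and at a threshold of 0.1 88 and 5. With the epithelial covariate 19 genes passed, 13 higher and 6 lower, and 0 members. Leaving out 1 array gave 0 to 1536 genes and 0 to 18 members. With plain-suffix probe sets, added after the data had been seen, 13 genes and 1 of 29 members passed. Where 0 members passed, 13 to 21 had an unadjusted p under 0.05 with a lower level. Replicate numbers are shared between groups. The deviations of same-numbered arrays from their group means correlated at 0.159, -0.038 and 0.10, and those of other control and null arrays at -0.170 to 0.055. The labels do not say that same-numbered arrays are pairs, and they were not taken as pairs. With the replicate block 0 genes and 0 members passed (limma), with 21 members at an unadjusted p under 0.05 and lower.

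Of the 32 members 24 kept their sign in every alternative that included them. The others turned sign, each with an adjusted p above 0.05 (limma) where it did, and the cause was not tested. Csf2ra turned to 0.16 with the mean over probe sets, 0.36 with the probe set of largest variance and 0.054 with array weights, and ran from -0.13 to 0.097 when 1 array was left out. With the epithelial covariate Folr2 turned to 0.088, C1qa to 0.10 and Fcgr3 to 0.050. Leaving out 1 array gave -0.27 to 0.012 for Folr2, -0.33 to 0.045 for C1qa and -0.013 to 0.29 for Cd14, each turning without null 1, and -0.18 to 0.064 for Itgam, which turned without null 3 and to 0.049 with array weights. With plain-suffix probe sets, which take their dim ones, Laptm5 turned to 0.14 and Coro1a to 0.057. Among other named genes Csf1 turned to -0.36 with the epithelial covariate and ran from -0.069 to 1.02 when 1 array was left out. Fermt3 turned to 0.14 with plain-suffix probe sets, Gas6 to 0.15 with the probe set of largest variance, and Tyro3 to 0.014 with the mean over probe sets and 0.25 with the epithelial covariate, with -0.25 to 0.050 when 1 array was left out. The members that turned sign did not all read low: Csf2ra and Fcgr3 read 8.47 and 7.67 on average, and Itgam and Cd14 3.52 and 4.38.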

Other observations

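Genes of granulocytes gave very unequal differences. Of the 12 measured, 10 were negative with a median of -0.31, 4 had all null arrays below all controls and 1, Mpo, was called. Over all genes, 11.7% had all null arrays below all controls and 0.066% were called lower (limma). S100a8 and S100a9, the subunits of the antimicrobial protein calprotectin, had the most negative differences of the list. S100a8 read 9.80, 8.02 and 7.64 in control 1, 2 and 3 and 4.50, 4.42 and 4.79 in null 1, 2 and 3, a difference of -3.92 ± 0.51 (SE; limma, adjusted p = 0.0698). S100a9 read 10.02, 8.53 and 7.59 in controls and 4.84, 4.62 and 4.20 in null arrays, a difference of -4.16 ± 0.55 (limma, adjusted p = 0.0698). Control 1 was the highest array for both, and neither gene passed the threshold. Mpo, the myeloperoxidase of early granules, read 7.43, 7.80 and 7.86 in controls and 5.46, 5.14 and 5.52 in null arrays and fell by 2.32 (limma, adjusted p = 0.0255). Mpo passed in 12 of 17 alternatives; the call was lost with the replicate block (adjusted p = 0.0958, limma) and on leaving out either null 1 or null 2, or either control 2 or control 3, where limma gave an adjusted p of 0.0849 to 0.222. Camp and Ngp differed by -1.67 and -1.41 with overlap (limma, adjusted p = 0.248 and 0.372), and control 1 was again the highest array. Elane, Prtn3 and Ctsg, proteases of the same granules, differed by -0.29, -0.19 and -0.13 with overlap, and Ms4a3 and Cxcr2 by 0.09 and 0.20. Elane, Ctsg and Cxcr2 read 3.36, 2.86 and 3.43 on average, below the lower quartile of all genes. There the array understates differences, and whether it hid a decrease was not tested. Relative to the control mean the list's median was -0.38 in null 1, -0.54 in null 2 and -0.60 in null 3.

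Lymphocyte genes read low in all arrays. The mean level of 10 genes of T and NK cells was 3.51 to 3.59 in controls and 3.56 to 3.85 in null arrays, and that of 7 B cell genes 4.39 to 4.65 and 4.42 to 4.75. Their median differences were 0.12 and 0.20, with 0 genes of either list called (limma) and 0 and 1 with an unadjusted p under 0.05. Of 6 megakaryocyte and platelet genes all 6 had a negative difference, with a median of -0.50, mean levels of 6.92 to 7.08 in controls and 6.09, 6.09 and 6.80 in null 1, null 2 and null 3, and 0 called (limma; 4 with an unadjusted p under 0.05). Of 6 mast cell genes 2 had a negative difference, with a median of 0.11 and 0 called (limma, with 1 at an unadjusted p under 0.05). Fcer1a, Ms4a2 and Mcpt4 read 2.50, 3.50 and 3.75 on average, below the lower quartile of all genes. Cpa3 and Hdc, the largest differences either way, gave -1.20 ± 0.50 and 0.42 ± 0.25 with overlap (limma, adjusted p = 0.288 and 0.409). Of 12 erythroid genes 11 had a negative difference, with a median of -0.43 and 2 called lower (limma). That list was lowest in null 2, at -0.85. Over all genes 0.066% were called lower, and 3089 of 18193 had an unadjusted p under 0.05 in either direction (limma).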
